A study of Mus musculus with 11 samples.

Results

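The 10 genes of IL-6 family and IL-1 family cytokine signalling studied here were measured in sorted mouse skin fibroblasts: the cytokine genes Il6, Lif, Il11 and Il33, the receptor genes Il6st, Osmr, Il1r1 and Il1rl1, the transcription factor gene Stat3 and its feedback inhibitor gene Socs3. They were taken by symbol as 10 of the 47643 gene symbols in the expression values. All 10 passed the filter on low values, which asked for 1 RPKM or more in 2 or more libraries, and so did 11979 genes in all, these included. RPKM, the reads of a gene per length of transcript and per mapped reads of the library, corrects for gene length, so that levels of different genes can be set side by side.

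The fibroblasts came from normal back skin (NS) and from wounds 5 days after injury (5dw), of wild-type (WT) mice and of mice with human INHBA, the gene of the activin A subunit, under the keratin 14 promoter (Act mice), which is active in keratinocytes. All mice were 9 to 12 weeks old and were F1 offspring of CD-1 and C57BL/6 parents. The cells were live and CD140a-positive (PDGFRA, a pan-fibroblast surface marker) and lacked CD45 (a marker of all leukocytes). Per the labels, CD11b, F4/80 and CD3 (markers of myeloid cells, macrophages and T cells) served as further negative markers. Each library held RNA pooled from 3 animals, and there were 3 libraries each of WT NS, Act NS and WT 5dw and 2 of Act 5dw, numbered 1 and 3. The comparisons asked how wounding, and how activin made by the epidermis, were associated with the transcriptomes of these cells.

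IL-6, LIF and IL-11 belong to the cytokines that signal through gp130, the shared receptor chain encoded by Il6st, each together with a ligand-specific chain, and OSMR pairs with gp130 to bind oncostatin M. Ligand binding activates Janus kinases, which phosphorylate STAT3, and SOCS3, itself a STAT3 target, binds gp130 and limits the signal. IL-1 family cytokines use a different route: IL-1 binds IL1R1 and IL-33, a nuclear protein released by damaged cells, binds ST2 (encoded by Il1rl1), and both receptors recruit MYD88 and activate NF-kB, which in fibroblasts turns on Il6 and other cytokine genes.

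To show the DNA in front of the genes whose levels carry the results, the promoters of 4 genes that were higher in 5dw fibroblasts (Il1rl1, Il33, Il11 and Lif) and of the pair with the highest levels (Il6 and Socs3) are printed, 5′ to 3′ on the strand of the gene. They come from RefSeq (GRCm38.p6), which gave 14 promoter windows for the 10 genes, each running from 250 bases before the start to 50 bases after it. Every start meant here is a RefSeq start. The printed stretches of Socs3 and Il11 lie inside the gene spans given below, as these starts are downstream of the annotated gene start. Only the stretch upstream of the start and outside annotated exons (GENCODE M21) is printed. Capitals mark letters that match 1 of 3 motifs searched on both strands: TGANTCA (bound by AP-1 factors), TTCNNNGAA (bound by STAT factors) and TATAAA (the TATA box).
Il6, chr5:30012864-30013113, plus strand: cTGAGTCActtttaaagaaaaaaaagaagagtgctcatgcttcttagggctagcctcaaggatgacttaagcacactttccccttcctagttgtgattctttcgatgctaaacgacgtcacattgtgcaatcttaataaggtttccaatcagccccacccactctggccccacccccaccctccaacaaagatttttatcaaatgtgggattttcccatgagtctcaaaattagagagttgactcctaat
Lif, chr11:4257318-4257556, plus strand: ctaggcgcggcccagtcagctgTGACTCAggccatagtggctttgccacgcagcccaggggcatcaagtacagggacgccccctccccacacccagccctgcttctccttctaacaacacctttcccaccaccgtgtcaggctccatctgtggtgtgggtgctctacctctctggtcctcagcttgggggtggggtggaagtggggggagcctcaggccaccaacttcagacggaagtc
Il11, chr7:4778142-4778391, minus strand: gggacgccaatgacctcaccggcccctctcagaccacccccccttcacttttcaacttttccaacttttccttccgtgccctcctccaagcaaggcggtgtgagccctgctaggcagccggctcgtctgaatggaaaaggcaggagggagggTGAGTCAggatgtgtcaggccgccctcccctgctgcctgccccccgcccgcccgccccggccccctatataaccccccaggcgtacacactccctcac
Socs3, chr11:117969452-117969616, minus strand: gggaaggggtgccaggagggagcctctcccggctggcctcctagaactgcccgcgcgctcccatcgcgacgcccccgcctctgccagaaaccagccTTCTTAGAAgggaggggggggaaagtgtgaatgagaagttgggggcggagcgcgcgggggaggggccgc
Il33, first start, chr19:29924863-29925112, plus strand: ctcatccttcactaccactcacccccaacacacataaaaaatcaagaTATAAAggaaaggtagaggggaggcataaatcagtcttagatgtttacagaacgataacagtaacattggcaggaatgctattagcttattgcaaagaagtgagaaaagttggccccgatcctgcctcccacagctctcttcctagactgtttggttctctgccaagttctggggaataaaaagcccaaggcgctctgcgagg
Il33, second start, chr19:29945540-29945789, plus strand: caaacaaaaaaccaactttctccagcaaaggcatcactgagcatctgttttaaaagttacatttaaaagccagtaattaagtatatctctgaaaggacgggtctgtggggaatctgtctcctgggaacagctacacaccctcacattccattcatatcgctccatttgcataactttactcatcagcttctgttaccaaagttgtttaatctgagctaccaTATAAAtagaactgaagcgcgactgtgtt
Il1rl1, first start, chr1:40429320-40429569, plus strand: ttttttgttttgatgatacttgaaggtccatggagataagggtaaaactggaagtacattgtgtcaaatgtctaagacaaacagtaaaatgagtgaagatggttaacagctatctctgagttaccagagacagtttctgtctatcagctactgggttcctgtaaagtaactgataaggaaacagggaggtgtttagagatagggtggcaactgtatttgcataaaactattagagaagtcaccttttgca
Il1rl1, second start, chr1:40439379-40439626, plus strand: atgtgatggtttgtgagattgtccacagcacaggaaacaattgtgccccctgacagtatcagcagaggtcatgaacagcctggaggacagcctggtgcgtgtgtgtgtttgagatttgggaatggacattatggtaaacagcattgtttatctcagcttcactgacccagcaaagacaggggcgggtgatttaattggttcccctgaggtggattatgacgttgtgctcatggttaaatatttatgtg

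The 3 gp130 cytokine genes each had an AP-1 match. Its first base lay 249 bases before the start in Il6 and 228 bases before it in Lif. In Il11 it lay 98 bases before the downstream start printed above, and the other window had none. With Osmr, where the match lay just after the start, 4 of the 14 windows held TGANTCA, against 7.81% of 32851 promoters of the same length. The STAT letters occurred in 1 window, that of Socs3, 154 bases before the RefSeq start and inside the annotated gene span, against 8.3% of all promoters. TATAAA was found in both windows of Il33 (203 and 29 bases before the start) and in no other, against 13.6% of promoters. Neither window of Il1rl1 held any of the searched letters. These matches describe the sequence only, and binding of a factor was not measured.

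The mapped totals of the 11 libraries, recovered from the RPKM values, ran from 18649321 to 39702138. Pdgfra, the gene of the sort marker, had mean RPKM of 56.1 (WT) and 55.7 (Act) among NS libraries and 35.8 (WT) and 31.8 (Act) among 5dw libraries, and Ptprc, the gene of CD45, did not exceed 0.0498 in any library. The 10 fibroblast markers summed to 12200 to 17900 RPKM in NS and 23500 to 26800 in 5dw libraries. Among NS libraries, Inhba ran from 3.40 to 6.93 RPKM in WT and from 36.3 to 91.2 in Act, and among 5dw libraries from 15.8 to 24.0 in WT and from 26.2 to 50.2 in Act, so that the genotypes did not overlap within a tissue, although whether reads of the human transgene were counted on the mouse gene was not tested. Both NS libraries numbered 1 stood apart from the other NS libraries on the second principal component (7.06% of the variance), and results that rest on them are given with and without them. NS libraries were made from 100 ng of RNA and 5dw libraries from 200 ng, and this difference cannot be told apart from wounding.

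Il6 and Socs3 were the most abundant of the 10 transcripts in both tissues. In NS fibroblasts the order by mean RPKM (n = 6) was Il6 (366), Socs3 (360), Il6st (59.9), Il1r1 (42.5), Il33 (40.5), Stat3 (34.7), Osmr (16.8), Lif (13.2), Il1rl1 (8.47) and Il11 (1.35). Among the 11979 genes these means ranked from 110 for Il6 and 113 for Socs3 to 10393 for Il11. Neighbours in this order overlapped in their library values, except for the steps from Socs3 to Il6st, from Stat3 to Osmr and from Il1rl1 to Il11. In 5dw fibroblasts (n = 5) the order was Il6 (305), Socs3 (288), Il33 (124), Il1rl1 (121), Il1r1 (38.1), Il6st (38.1), Lif (23.8), Stat3 (21.6), Osmr (17.7) and Il11 (10.5). Here the steps from Socs3 to Il33, from Il1rl1 to Il1r1, from Il6st to Lif and from Stat3 to Osmr were free of overlap. Il1rl1 moved from rank 3980 to rank 314, Il11 from 10393 to 2723, and Il33 from 915 to 306.

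**Figure D1:**
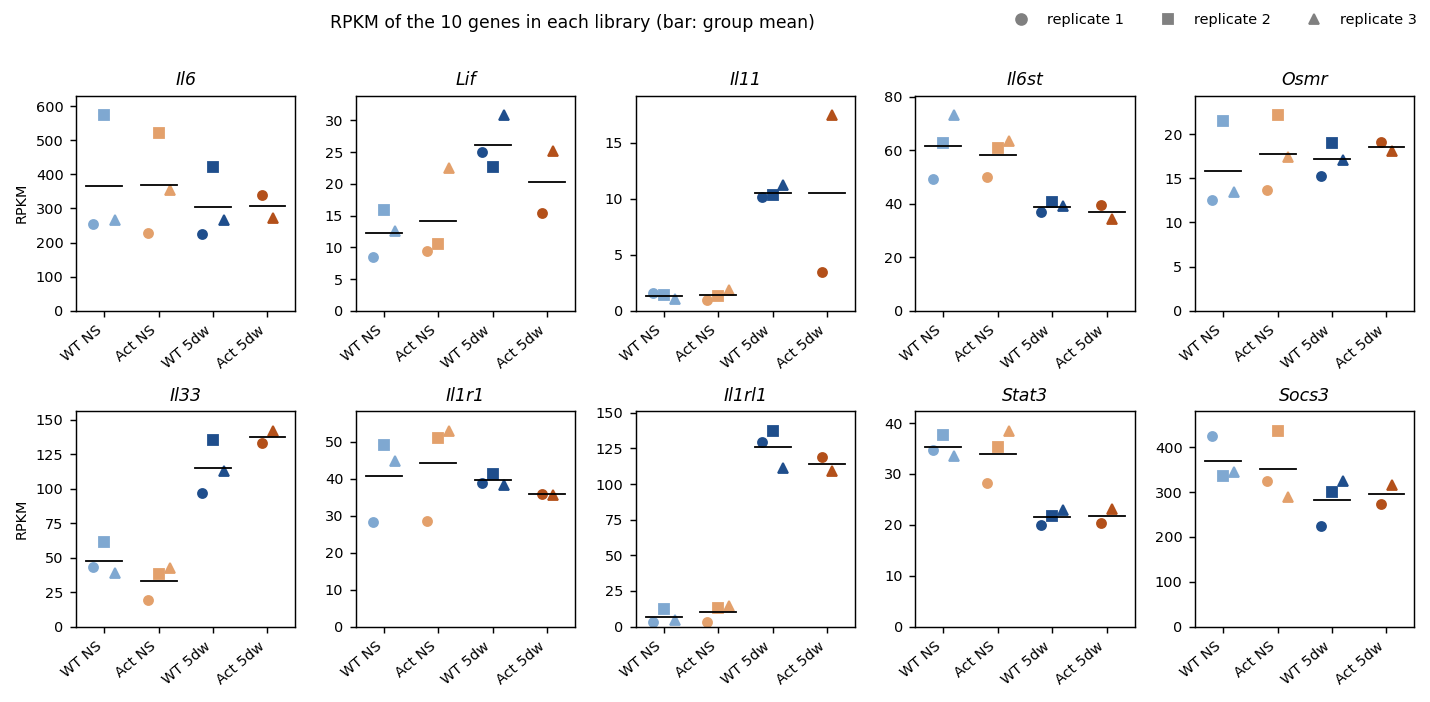
RPKM of each gene (vertical axes, linear, from 0) in the WT NS, Act NS, WT 5dw and Act 5dw libraries. Points are libraries, with the symbol giving the replicate number, and bars are group means. Il1rl1, Il11 and Il33 show 5dw libraries above all NS libraries, Stat3 and Il6st show them below, and the Il11 values of the 2 Act 5dw libraries lie far apart.

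Wounding was associated with higher levels of Il1rl1, Il33, Il11 and Lif and lower levels of Il6st and Stat3 in WT fibroblasts. Of the 10 genes, 6 were DEGs (adjusted p under 0.05, limma with Benjamini-Hochberg adjustment) between WT 5dw and WT NS, 4 higher and 2 lower. This is to be read against 58.2% of all tested genes that were called in the same comparison, with 9.43% called higher and 48.8% called lower. In Act fibroblasts 5 of the 10 were DEGs, 3 higher (Il1rl1, Il33 and Il11) and 2 lower (Il6st and Stat3), against 45.4% of all genes, 9.01% higher and 36.4% lower. The median log2FC of the 10 genes was 0.07 in WT and -0.05 in Act, while that of all tested genes was -0.40 and -0.31. RPKM values are shares of a library, so a shift of most genes to one side depends on the scaling. With median-ratio scaling, which sets the median change near 0, 5 of the 10 were called in WT, all higher, and 3 in Act, all higher. The background under this scaling was 44.6% of genes called in WT (22.4% higher, 22.2% lower) and 40.7% in Act (19.9% higher, 20.8% lower). With quantile normalization, which gives all libraries the same distribution of values, 4 of the 10 were called higher and 2 lower in WT, and 3 higher and 2 lower in Act. Here the background was 39.8% of genes in WT (20.4% higher, 19.4% lower) and 37.4% in Act (20.1% higher, 17.3% lower).

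**Figure D2:**
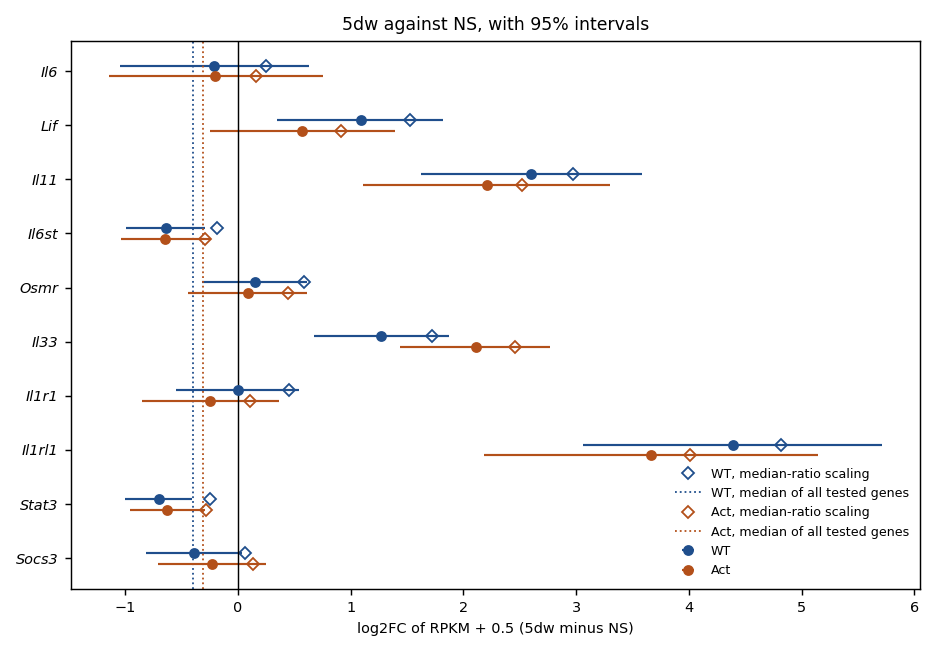
Log2FC of RPKM + 0.5, 5dw minus NS (horizontal axis), for each gene in WT and Act fibroblasts, as filled points with 95% intervals from limma. Open diamonds give the same value under median-ratio scaling and dotted lines the median of all tested genes. Il1rl1, Il11 and Il33 lie to the right of 0 in both genotypes under either scaling, whereas the diamonds of Stat3 and Il6st lie between -0.29 and -0.19.

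Of the gp130 cytokines, Il6 did not differ detectably between wound and normal skin. Il6 (chr5:30013114-30019981, plus strand) encodes the pleiotropic cytokine IL-6, an inducer of the acute-phase response. In normal skin its RPKM was 254, 573 and 266 in the WT libraries numbered 1, 2 and 3 and 228, 522 and 355 in those of Act. In wounds it was 224, 422 and 267 (WT) and 338 and 273 (Act). All 4 groups overlapped, and the library numbered 2 was the highest in each of the 3 groups that had one. The log2FC was -0.21 (95% interval -1.05 to 0.63, adjusted p = 0.655) in WT and -0.20 (-1.14 to 0.75, adjusted p = 0.734) in Act, and under median-ratio scaling it turned to 0.25 and 0.16, again without a call.

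Il6 and Socs3 were measured in cells released by enzymes over 1 h, a step known to induce immediate-early genes. The 15 dissociation-response genes on the list used, such as Fos (group means 966 to 1318 RPKM), summed to 7290 to 11100 RPKM in NS and 6890 to 8550 in 5dw libraries. The part of this response in the high levels of Il6 and Socs3 was not tested.

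Lif (chr11:4257557-4272514, plus strand), which encodes leukemia inhibitory factor, was higher in WT wounds. Its RPKM was 8.46, 15.9 and 12.6 in normal skin and 25.0, 22.7 and 30.8 in wounds of WT mice, with no overlap. In Act mice it was 9.46, 10.6 and 22.4 in normal skin and 15.4 and 25.2 in wounds, and here the groups overlapped. The log2FC was 1.09 ± 0.33 (SE, adjusted p = 0.0169) in WT. In Act it was 0.57 with an interval of -0.25 to 1.39 (adjusted p = 0.234), and the difference between the genotypes' log2FC was -0.52 (-1.62 to 0.58, adjusted p = 0.999). The WT call rested on single libraries: the adjusted p rose above the threshold without WT NS 1 or without WT 5dw 3, to at most 0.0631, and Lif was called in Act without Act NS 3 (log2FC = 0.94, adjusted p = 0.0286). Keratinocyte markers summed to 1090, 1860 and 2030 RPKM in WT NS 1, 2 and 3 and to 180, 368 and 1610 in WT 5dw. In Act NS 1, 2 and 3 they summed to 1160, 2750 and 4250, and in Act 5dw 1 and 3 to 420 and 499. The part of keratinocyte RNA in the Lif values was not tested.

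Il11 (chr7:4772373-4782859, minus strand) encodes IL-11, a cytokine known to act on fibroblasts in fibrosis. It was close to the detection filter in normal skin, with RPKM of 1.56, 1.39 and 1.04 in WT NS and 0.976, 1.30 and 1.82 in Act NS. In WT 5dw it reached 10.1, 10.3 and 11.2 RPKM. The Act 5dw libraries had 3.49 and 17.4, 1 below and 1 above all WT 5dw libraries, although each was above every NS library. The log2FC was 2.60 ± 0.44 (SE, adjusted p = 0.000896) in WT and 2.21 ± 0.49 (SE, adjusted p = 0.00539) in Act. The value in Act moved between 1.12 and 3.29 when single libraries were left out, and 5.2% of the 31-base sequences of Il11 also occur in another gene.

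Among the gp130 receptors, Il6st was lower in wound fibroblasts and Osmr was not called. Il6st (chr13:112464070-112510086, plus strand), the shared chain, had RPKM of 49.2, 62.8 and 73.1 (WT) and 50.0, 60.7 and 63.4 (Act) in normal skin, and of 36.9, 40.6 and 39.2 (WT) and 39.4 and 34.2 (Act) in wounds. The highest wound library was below the lowest one of normal skin. The log2FC was -0.64 ± 0.16 (SE, adjusted p = 0.00559) in WT and -0.65 ± 0.18 (SE, adjusted p = 0.0125) in Act. Relative to the median of all genes the difference was smaller, and under median-ratio scaling it was -0.19 (adjusted p = 0.253) and -0.29 (adjusted p = 0.125), no longer a call in either genotype. Quantile normalization kept both calls, at -0.47 (adjusted p = 0.0202) in WT and -0.49 (adjusted p = 0.0266) in Act. Without Act 5dw 3, the call in Act was also lost (adjusted p = 0.102).

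Osmr (chr15:6813577-6874969, minus strand), the chain that pairs with gp130 to bind oncostatin M, had RPKM of 12.6, 21.5 and 13.5 (WT) and 13.7, 22.2 and 17.5 (Act) in normal skin, and of 15.3, 19.0 and 17.1 (WT) and 19.1 and 18.0 (Act) in wounds. The groups overlapped. The log2FC was 0.15 (95% interval -0.32 to 0.61, adjusted p = 0.571) in WT and 0.09 (-0.44 to 0.61, adjusted p = 0.789) in Act. Median-ratio scaling gave a call in WT (log2FC = 0.59, adjusted p = 0.0397) and none in Act (0.44, adjusted p = 0.156). Its ligand gene Osm stayed at or below 0.17 RPKM in every library and was not tested.

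The signal transducer Stat3 was lower in wounds and its inhibitor Socs3 was not called. Stat3 (chr11:100885098-100939540, minus strand) had RPKM of 34.8, 37.6 and 33.6 (WT) and 28.2, 35.3 and 38.5 (Act) in normal skin, and of 20.0, 21.7 and 22.9 (WT) and 20.4 and 23.1 (Act) in wounds. No 5dw library reached the lowest NS library. The log2FC was -0.70 ± 0.13 (SE, adjusted p = 0.00128) in WT and -0.63 ± 0.15 (SE, adjusted p = 0.00634) in Act. As for Il6st, the call was lost in both genotypes under median-ratio scaling (WT -0.25, adjusted p = 0.0964; Act -0.28, adjusted p = 0.109) and kept in both under quantile normalization (WT -0.48, adjusted p = 0.00286; Act -0.43, adjusted p = 0.00961). It was also lost in Act without Act 5dw 1 (adjusted p = 0.0574). Stat3 overlaps Stat5a on the other strand, and it is not known whether reads were counted by strand, so that reads in the overlap may have gone to either gene.

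Socs3 (chr11:117966079-117970047, minus strand) had RPKM of 426, 335 and 345 (WT) and 326, 437 and 290 (Act) in normal skin, and of 224, 299 and 325 (WT) and 275 and 317 (Act) in wounds. The WT 5dw libraries lay below the WT NS libraries without overlap, but the log2FC of -0.39 (95% interval -0.82 to 0.04) did not pass the test (adjusted p = 0.105). In Act the groups overlapped and the log2FC was -0.23 (-0.71 to 0.25, adjusted p = 0.413). Under median-ratio scaling the values were 0.06 and 0.13, so that its direction was not fixed by these data.

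On the IL-1 side, the ligand gene Il33 and the IL-33 receptor gene Il1rl1 were both higher in wound fibroblasts of both genotypes, while the IL-1 receptor gene Il1r1 was not called. Il33 (chr19:29925114-29960718, plus strand) had RPKM of 43.2, 61.2 and 39.1 (WT) and 19.5, 37.8 and 42.4 (Act) in normal skin, and of 96.6, 136 and 113 (WT) and 133 and 142 (Act) in wounds. Each 5dw library was above each NS library. The mean was 2.41-fold higher in WT (log2FC = 1.27 ± 0.27 SE, adjusted p = 0.00243) and 4.14-fold higher in Act (log2FC = 2.11 ± 0.30 SE, adjusted p = 0.000367). The ratio in Act was 3.43 without Act NS 1 and 4.00 to 4.80 without any other single Act library. Both calls were made in every alternative, with a log2FC of 1.14 to 1.72 in WT and 1.77 to 2.46 in Act.

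Il1rl1 (chr1:40429570-40465415, plus strand) showed the largest difference of the 10 genes. Its RPKM was 2.82, 12.5 and 4.57 (WT) and 3.05, 13.1 and 14.7 (Act) in normal skin, and 130, 137 and 111 (WT) and 119 and 109 (Act) in wounds. The lowest wound library was thus far above the highest normal skin library, and the NS libraries themselves were widely spread, with both libraries numbered 1 the lowest of their groups. In reads this was 490 to 2334 per NS library against 16814 to 36662 per 5dw library, so counting error was small. The ratio of the means was 19.0 in WT (log2FC = 4.39 ± 0.59 SE, adjusted p = 0.000279) and 11 in Act (log2FC = 3.66 ± 0.66 SE, adjusted p = 0.00199), and both calls held in every alternative. The ratio in WT was 34.1 without WT NS 2 and 14.8 to 20.1 without any other single WT library. Il1rl1 encodes a membrane receptor and a soluble decoy form, which are known to start from different promoters, such as the 2 printed above, and gene-level values cannot tell them apart.

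As ST2 is also known from mast cells and from T and innate lymphoid cells, their markers are given beside it. The 8 mast cell markers summed to 0.491 to 2.57 RPKM in NS and 0.405 to 0.612 in 5dw libraries, none of them had a group mean of 1, and Cpa3, Tpsb2, Cma1, Fcer1a and Ms4a2 were at 0 in both Act 5dw libraries. The 8 T cell and innate lymphoid markers summed to 6.44 to 42.0 in NS and 59.0 to 107 in 5dw libraries. In 5dw libraries nearly all of this sum was Cd3e (group means 9.53, 15.4, 86.0 and 56.4 in WT NS, Act NS, WT 5dw and Act 5dw). Gata3 ran from 2.84 to 10.0 in NS and from 0.188 to 0.525 in 5dw libraries. Il2rg went the other way, with means of 0.522 in NS and 1.30 in 5dw. Cd3d, Cd3g, Cd2, Il7r and Trac stayed at or below 0.793 in every library. Of these, Cd3d, Cd3g and Trac had means of 0.09, 0.05 and 0.11 in NS and 0.48, 0.34 and 0.48 in 5dw. Surface CD3, the protein complex to which Cd3e contributes, was among the negative markers of the sort per the labels. Cd3e was higher in 5dw of both genotypes, and it was the only listed gene that passed the filter on low values in both tissues. The 8 pan-immune markers, Ptprc included, summed to at most 2.02 RPKM. In bulk samples, fewer cells of a type and less RNA per cell cannot be told apart.

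Il1r1 (chr1:40225080-40317257, plus strand), the signalling receptor of IL-1, had RPKM of 28.3, 49.2 and 44.8 (WT) and 28.6, 51.1 and 53.0 (Act) in normal skin, and of 38.9, 41.4 and 38.4 (WT) and 35.9 and 35.7 (Act) in wounds. The NS libraries spread to both sides of the 5dw libraries, with the libraries numbered 1 the lowest of all 11. The 95% interval of the log2FC ran from -0.55 to 0.54 in WT (adjusted p = 0.989) and from -0.85 to 0.36 in Act (adjusted p = 0.484). When the NS libraries numbered 1 were left out, Il1r1 was called in Act (log2FC = -0.53, adjusted p = 0.00396) and 6 of the 10 genes were DEGs there, against 52.6% of all tested genes. The gene shares its strand and part of its span with Gm38070, a transcript of uncertain status.

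**Figure D3:**
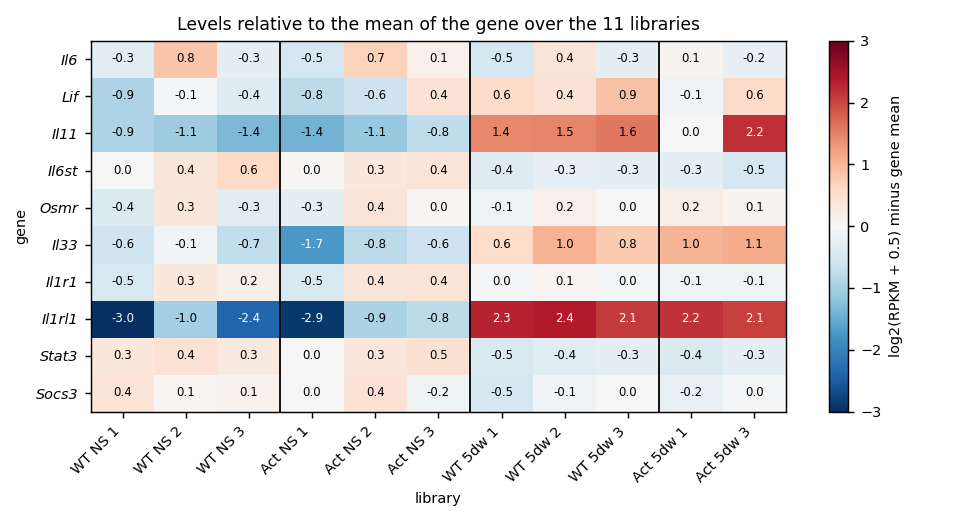
Log2(RPKM + 0.5) of each gene (rows) in each library (columns) minus the mean of that gene over the 11 libraries, with the value printed in each cell and vertical lines between the groups. The Il1rl1 and Il11 rows change colour between NS and 5dw, and the column of Act NS 1 is the lowest of its group for 9 of the 10 genes.

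Act NS 1 was the lowest of its group for 9 of the 10 genes and for 65.2% of all tested genes. WT NS 1 was the lowest for 6 of the 10 (39.9% of all) and WT 5dw 1 for 7 (29.3%), and WT NS 2 was the highest of its group for 7 (28.0%). The closest profiles among the 10 were those of Il6st and Stat3, with a root mean square difference of 0.16 over the 11 libraries (log2 scale, each profile centred on its mean).

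Over all 11979 genes, the profiles most like each of the 10 were sought with the same measure, as a description of likeness only. Cxcl3, a neutrophil-attracting chemokine gene (7.70 RPKM in NS, 111 in 5dw), was nearest to Il1rl1 at 0.285, followed by Gm11843 (0.521) and Timp1 (0.533), against a median distance of 2.30 over all genes. Il33 was nearest to Arl4c (0.192), to the hypoxia-inducible factor gene Hif1a (0.244) and to the plasminogen activator gene Plat (0.246). For Il11 the nearest were the monocarboxylate transporter gene Slc16a3 (0.286) and Depdc5 (0.305), and for Lif the IL-1 alpha gene Il1a (0.204), Nme1 (0.209) and Tpm4 (0.251). Il6 lay nearest to Ptp4a1 (0.160), Bmp6 (0.166) and Casp4 (0.173), and Socs3 to Tmem254c (0.085), Mfsd7a (0.108) and Tmem106c (0.123). The nearest were Hiatl1, Ppp6c and Tgs1 for Il6st, Rbm15, Clk3 and Usp49 for Stat3, Spry2, Panx1 and Hivep2 for Osmr, and Eaf1, Usp16 and Chchd4 for Il1r1, all at 0.126 or less.

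Activin was not associated with a detectable difference in any of the 10 genes. Between Act NS and WT NS, 0 of the 10 were called, against 0.0167% of all tested genes, and between Act 5dw and WT 5dw 0 of the 10, against 0.0334%. The interaction, the difference between the genotypes in the effect of wounding, gave 0 calls among the 10 and 0.0% of all genes. None of the 10 reached an unadjusted p under 0.05 in these 3 comparisons with limma, of 811, 384 and 388 genes that did, and limma-voom on recovered reads also called 0 of them. These values do not show that the genotypes were alike, since the 95% intervals were wide for genes with spread replicates: for Il1rl1 the log2FC was 0.59 (-0.74 to 1.91) in NS and -0.14 (-1.62 to 1.34) in 5dw, and for Il11 in 5dw it was -0.38 (-1.48 to 0.71). They were narrow for Stat3, at -0.06 (-0.36 to 0.23) in NS and 0.01 (-0.32 to 0.34) in 5dw. The lowest unadjusted p-values of the 10 genes in NS and in the interaction belonged to Il33, whose log2FC was -0.57 (-1.16 to 0.03, adjusted p = 0.71) in NS, 0.27 (-0.40 to 0.94, adjusted p = 1.0) in 5dw and 0.83 (-0.06 to 1.73, adjusted p = 0.999) in the interaction. Over all alternatives, those without the NS libraries numbered 1 included, the log2FC of Il33 ran from -0.78 to -0.23 in NS. In the interaction it ran from 0.50 to 1.04. Act NS 1 had the lowest Il33 value of its group, at 19.55 RPKM against 37.79 and 42.35 in Act NS 2 and 3. For Il11 in 5dw, the log2FC was -1.47 without Act 5dw 3 and 0.70 without Act 5dw 1.

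**Figure D4:**
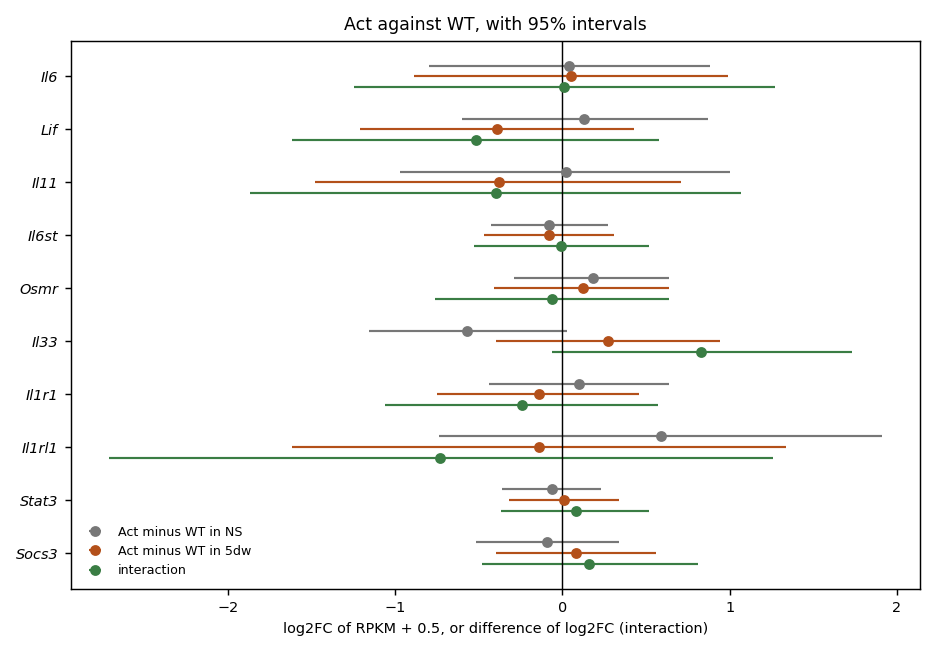
Log2FC of RPKM + 0.5 between Act and WT in NS and in 5dw fibroblasts, and the interaction (difference of log2FC), for each gene with 95% intervals from limma. All intervals include 0, and those of Il33 run from -1.16 to 0.03 in NS and from -0.06 to 1.73 in the interaction.

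Of 9 other ligand genes of the gp130 family, 2 were tested. Of 7 other receptor genes, 5 were tested, with 1 higher and 2 lower in WT and 1 higher and 3 lower in Act, where 9.43% (WT) and 9.01% (Act) of all tested genes were higher and 48.8% and 36.4% lower. Median-ratio scaling and quantile normalization each gave 2 higher and 2 lower in WT and 1 and 3 in Act. The IL-6 receptor gene Il6ra was lower in 5dw, at 3.10 against 11.4 RPKM in WT (log2FC = -1.72, adjusted p = 7.32e-05) and 2.34 against 11.9 in Act (-2.11, adjusted p = 5.93e-05). Il31ra, which pairs with OSMR to bind the itch cytokine IL-31, was lower as well (19.6 to 1.72 RPKM from NS to 5dw in WT, log2FC = -3.01, adjusted p = 0.00023), and the CNTF receptor gene Cntfr was higher (1.92 to 4.02 RPKM in WT, log2FC = 0.90, adjusted p = 0.00181). These 3 receptor calls held in Act, and in both genotypes under median-ratio scaling and quantile normalization. Il11ra1, the IL-11 receptor gene, chosen after its values were seen, was the most abundant of these receptor genes. It had means of 72.1 RPKM in normal skin and 50.9 in wounds of WT mice (log2FC = -0.51, adjusted p = 0.0656), and of 83.0 and 41.6 in Act mice (-1.03, adjusted p = 0.00628).

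Of 20 JAK-STAT kinases, STATs and regulators, 0 were higher and 14 lower in WT 5dw, and 0 and 11 in Act, with a median log2FC of -0.65 and -0.57, where 48.8% (WT) and 36.4% (Act) of all tested genes were lower. Without Ptpn6, which passed the filter only through NS libraries, 13 were lower in WT. Under median-ratio scaling, 1 was higher and 5 lower in each genotype, and under quantile normalization 1 was higher and 8 lower in WT and 1 and 5 in Act. Stat5b fell most (19.4 to 5.25 RPKM in WT, log2FC = -1.79, adjusted p = 1.96e-06), followed by Socs2 (-1.26), Socs7 (-1.18) and Stat5a (-1.03), although Stat5b and Stat5a share 15.2% and 11.7% of their 31-base sequences with other genes. Of 16 known STAT3 target genes, 3 were higher and 9 lower in WT 5dw, and 3 and 6 in Act, against the same background, with 9.43% (WT) and 9.01% (Act) of all genes higher. Birc5 and Ccnd1 passed the filter only through the tissue where they were high, and without them 2 were higher and 8 lower in WT, and 2 and 5 in Act. The metalloproteinase inhibitor gene Timp1 went from 44.3 to 675 RPKM in WT (log2FC = 3.96, adjusted p = 1.3e-05), and Bcl3 was lower (-1.87, adjusted p = 4.6e-06). As a description, mean RPKM of Birc5, which encodes the mitotic regulator survivin, was 0.639 in WT NS and 3.45 in WT 5dw, and that of the cyclin D1 gene Ccnd1 was 5.32 and 0.850. Under median-ratio scaling, 5 of the 16 were higher and 5 lower in WT, and under quantile normalization 4 and 9.

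**Figure D5:**
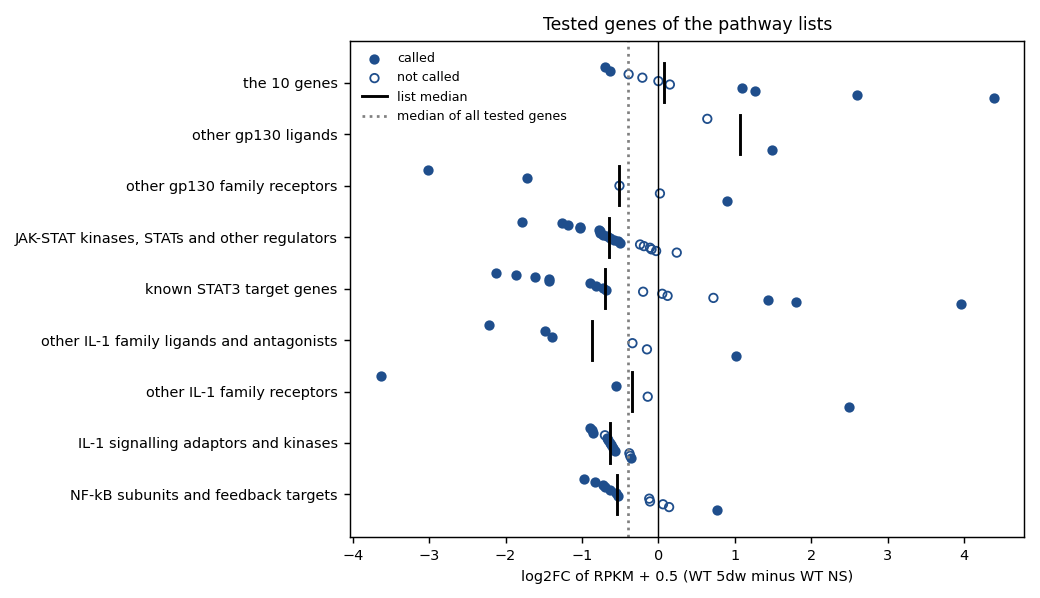
Log2FC of RPKM + 0.5, WT 5dw minus WT NS (horizontal axis), for the tested genes of each pathway list (rows), with filled points for DEGs, open points for the others, a bar at the list's median and a dotted line at the median of all tested genes (-0.40). The medians of the JAK-STAT (-0.65), IL-1 adaptor (-0.64) and NF-kB (-0.54) lists lie to the left of the dotted line, and Timp1 (3.96) and Il1r2 (-3.63) lie far to either side of it.

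Among the other IL-1 family receptors, the decoy receptor gene was lower in wounds of both genotypes. Of 8 such genes, 4 were tested, with 1 higher and 2 lower in WT and the same counts in Act, against the same background. Median-ratio scaling and quantile normalization each gave 1 higher and 1 lower in both genotypes. Il1r2, the decoy receptor that binds IL-1 without signalling, went from 118 to 9.21 RPKM in WT (log2FC = -3.63, adjusted p = 2.96e-07) and from 113 to 7.30 in Act (-3.87, adjusted p = 7.03e-07), and both calls held under median-ratio scaling and quantile normalization. Il18r1, a chain of the IL-18 receptor, had means of 0.258 RPKM in normal skin and 3.81 in wounds of WT mice, and of 0.335 and 3.16 in Act mice. It did not exceed 0.443 RPKM in any NS library and passed the filter only through the 5dw libraries, so these values are given as a description, and without it no gene of the list was higher. The IL-36 receptor gene Il1rl2 was lower in WT (-0.56, adjusted p = 0.0159), but not called at -0.11 (adjusted p = 0.548) under median-ratio scaling, and in Act it had a log2FC of -0.44 (adjusted p = 0.0787).

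Of 10 other IL-1 family ligands and antagonists, 6 were tested, with 1 higher and 3 lower in WT 5dw and 0 and 4 in Act, against the same background. Median-ratio scaling gave 1 and 3 in WT and 0 and 3 in Act, and quantile normalization 1 and 2 in the WT comparison, with 1 and 4 for Act. Of the 6, only Il18 and Il18bp passed the filter in both tissues. Among these 2, 0 were higher and 1 lower in WT, and 0 and 2 in Act. The counts above, also those under the other scalings, include genes that passed through 1 tissue only. Il18, the gene of the cytokine IL-18, was lower in WT (7.36 RPKM in 5dw, log2FC = -1.48, adjusted p = 0.00216) and in Act (-1.21, adjusted p = 0.0145). In Act the call was lost under median-ratio scaling (-0.87, adjusted p = 0.053) and kept under quantile normalization (-0.93, adjusted p = 0.0347). Il1rn and Il1f5 passed only through NS libraries and Il1a only through 5dw libraries, and their levels are given as a description. Mean RPKM of the IL-1 receptor antagonist gene Il1rn was 6.55 in normal skin and 0.913 in wounds of WT mice, and 10.4 and 0.743 in Act mice. That of Il1f5, the IL-36 receptor antagonist gene, was 1.06 and 0.0812 in WT mice, and that of Il1a 0.673 and 1.93. Il1b did not exceed 0.479 RPKM in any library. Il1rn, Il18 and Il1f5 are known to be abundant in keratinocytes, and the 14 keratinocyte markers summed to 1090 to 4250 RPKM in NS and 180 to 1610 in 5dw libraries, with Krt10 at means of 584 and 1030 in WT NS and Act NS and 17.8 and 10.2 in WT 5dw and Act 5dw. WT 5dw 3 had the highest sum of the 5dw libraries, and the others lay between 180 and 499. Krt14 was 57.8, 115 and 528 RPKM in the WT 5dw libraries, against 192 to 264 in WT NS. Krt6a (26.9, 61.5 and 265) and Krt6b (16.2, 37.3 and 163) were above all WT NS libraries, which had at most 11.1 and 0.819. The part of keratinocyte RNA in these values was not tested. The markers of other cells are given as sums. Neutrophil markers summed to 0.449 to 1.40 RPKM in NS and 3.05 to 22.1 in 5dw, macrophage markers to 9.86 to 17.0 over all libraries, endothelial markers to 6.47 to 11.7 in NS and 16.6 to 18.9 in 5dw, and pericyte and smooth muscle markers to 14.4 to 23.4 in NS and 12.1 to 19.6 in 5dw.

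Downstream of the IL-1 and IL-33 receptors, 13 of 14 adaptor and kinase genes were tested, and 0 were higher and 9 lower in WT 5dw, and 0 and 8 in Act, where 48.8% and 36.4% of all tested genes were lower. Without Ikbkb, which passed the filter only through NS libraries, 8 were lower in WT and 7 in Act. Their median log2FC was -0.64 in WT and -0.56 in Act, and under median-ratio scaling 4 were called lower in each genotype, and under quantile normalization 3 in WT and 2 in Act. The adaptor gene Myd88 had a mean of 68.2 RPKM in WT NS and 37.0 in WT 5dw (log2FC = -0.87, adjusted p = 0.0047, and -0.42 with adjusted p = 0.119 under median-ratio scaling and -0.70 with adjusted p = 0.00736 under quantile normalization). Traf6, a ubiquitin ligase of the same route, was lower in WT (-0.90, adjusted p = 0.000159), as was the kinase complex gene Ikbkg (-0.85, adjusted p = 0.00133). Both calls held under median-ratio scaling, but under quantile normalization that of Ikbkg (-0.36, adjusted p = 0.119) was lost in WT, and Traf6, called there, was not called in Act (adjusted p = 0.189). Of 12 NF-kB subunits and feedback targets, 1 was higher and 7 lower in WT 5dw, and 1 and 6 in Act, against the same background. The gene that was higher, Nfkbiz, encodes the nuclear cofactor IkB-zeta and went from 86.0 to 147 RPKM in WT (log2FC = 0.77, adjusted p = 0.00237) and from 77.5 to 141 in Act (0.89, adjusted p = 0.00282). Rel (-0.98), Nfkbie (-0.83) and Rela (-0.73) were lower in WT, but of these only the call of Nfkbie held there under median-ratio scaling, which gave 3 genes higher and 1 lower in WT and 1 and 3 in Act, Rela (-0.64, adjusted p = 0.0152) among the lower ones there. Quantile normalization gave 1 higher and 3 lower in each genotype. Rela was called lower there in WT (-0.57, adjusted p = 0.00452) and in Act (-0.83, adjusted p = 0.00107). Nfkbie was called in WT (-0.39, adjusted p = 0.0314) but not in Act (adjusted p = 0.051), and Rel in neither (adjusted p = 0.066 and 0.171). In the genotype comparisons and the interaction, 0 genes of any of these lists were called.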

How the data were processed

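RNA of sorted fibroblasts was sequenced as poly-A libraries in 11 libraries of 4 groups (WT NS, Act NS and WT 5dw, 3 each, and Act 5dw, 2), and the authors left out Act 5dw 2 after quality control. Reads were aligned to GRCm38 in CLC Genomics Workbench, and the authors deposited RPKM values per gene symbol (47643 symbols). Their own test for DEGs, the edgeR exact test, takes counts and was not run here. Mapped totals were recovered as the number that makes RPKM times GENCODE M21 exon length whole. Of the values under 50 reads, 80.8% to 82.0% came out whole within a tolerance of 0.03 reads, and the totals were 18649321 to 39702138. The sources used here do not say how reads were assigned by strand or between similar genes.

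Values were log2(RPKM + 0.5), so fold changes of low genes are understated. The 11979 genes that reached 1 RPKM in 2 or more libraries were fitted with limma 3.58.1 (R 4.3.3) as limma-trend with robust moderation, with 1 mean per group over the 11 libraries, 7 residual degrees of freedom and a median of 4.18 prior degrees of freedom. Adjusted p-values are Benjamini-Hochberg values over all tested genes within a comparison, with 0.05 as the threshold for DEGs. The scripts were tested on simulated data. The 10 genes and all gene lists were chosen with earlier results of these data known. The genes named are the 10, the 3 nearest profiles of each, up to 4 called genes of each pathway list with the largest change in WT, and the most abundant marker of other cells; other markers named were chosen after their values were seen. A few results that this rule would name are not reported here. No p is adjusted over a list alone, and no set test was run.

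Alternatives were pseudocounts of 0.1 and 1, no filter and a filter at 5 RPKM, median-ratio scaling, quantile normalization, the compared groups alone, the replicate number as a block, limma-voom on recovered reads (10243 genes, without Il11, whose reads were not whole), leaving out each library, and leaving out both NS libraries numbered 1. Deviations from the group means of same-numbered libraries correlated across genes at 0.334 to 0.554 between WT NS and Act NS and at 0.109 to 0.188 between WT NS and WT 5dw, so the numbers were taken as pairing these samples, from the data and not from the labels. The main fit and its p-values did not use this pairing, which entered only through the replicate block. Comparisons with Act 5dw share only 2 numbers and were not taken as paired. Their values under the block are given only as an alternative. Libraries are pools of animals, and per the paper the pooling went across sorting sessions. Which sessions a library drew on is not given, and p-values measure the spread between these libraries. Promoter sequences are from RefSeq (GRCm38.p6).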

Additional observations from a re-analysis of the deposited data

How the results depend on the processing

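The calls of Il1rl1, Il11 and Il33 in both wound comparisons were made in every alternative that gave a value, and no alternative called any of the 10 genes in the genotype comparisons or the interaction. Of 485 log2FC values under alternatives other than leaving out 1 library, 455 kept their direction and their side of the threshold, and the cause of the others was not tested. Il11 could not be fitted by limma-voom.

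With median-ratio scaling, 3 of the 10 genes were called in Act wounds (5 by the main fit), and the genes called between genotypes in 5dw went from 4 to 2. Log2FC values that changed sign, none of them called, were those of wounding in WT for Il6 (0.25), Il1r1 (0.45) and Socs3 (0.06), of wounding in Act for Il6 (0.16), Il1r1 (0.11) and Socs3 (0.13), of Act against WT in NS for Il6st (0.07), Stat3 (0.08) and Socs3 (0.06), and of the interaction for Il6 (-0.09) and Stat3 (-0.02). Quantile normalization turned Il1r1 in WT wounds (0.18), and Il6st (0.03) and Stat3 (0.04) between genotypes in NS, and gave 2 genes between genotypes in 5dw.

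The replicate block changed no call of the 10 genes (6 in WT and 5 in Act). With this block, Il6 in Act wounds turned to 0.12, Il1rl1 between genotypes in 5dw to 0.16, and the interaction to 0.02 for Il6st and 0.10 for Osmr. Over all genes, 1 gene was called in the interaction. These comparisons include Act 5dw, whose numbers were not taken as pairs. Without the NS libraries numbered 1, Osmr in Act wounds was -0.08, Stat3 and Socs3 between genotypes in NS were 0.05 and 0.07, and the interaction was -0.09 for Il6, 0.04 for Il6st and -0.04 for Stat3, while 11 genes were called between genotypes in NS and 1 in the interaction.

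Over all genes, a filter at 5 RPKM gave 3767 DEGs in WT and 3098 in Act wounds, of 6596 genes tested, and 1 between genotypes in NS. No filter gave 10 in NS, 24 in 5dw and 6 in the interaction, of 26465 tested. The compared groups alone gave 0 between genotypes in NS, and limma-voom gave 2 in 5dw.

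When single libraries were left out, DEGs in Act wounds ranged from 3458 (without Act 5dw 3) to 5868, genes called between genotypes from 0 to 6 in NS and from 0 to 5 in 5dw, and those of the interaction from 0 to 2. Log2FC of wounding in WT ranged from -0.47 to 0.17 for Il6 and from -0.24 to 0.15 for Il1r1, and in Act from -0.50 to 0.10 for Il6 and from -0.08 to 0.26 for Osmr. Between genotypes in NS the ranges were -0.25 to 0.42 for Il6, -0.24 to 0.36 for Lif, -0.15 to 0.17 for Il11, -0.23 to 0.06 for Il6st, -0.14 to 0.39 for Il1r1, -0.16 to 0.06 for Stat3 and -0.25 to 0.04 for Socs3. In 5dw they were -0.14 to 0.31 for Il6, -1.47 to 0.70 for Il11, -0.18 to 0.02 for Il6st, -0.07 to 0.10 for Stat3 and -0.08 to 0.19 for Socs3. In the interaction they were -0.37 to 0.30 for Il6, -1.48 to 0.69 for Il11, -0.14 to 0.15 for Il6st, -0.29 to 0.11 for Osmr and -0.05 to 0.17 for Stat3. Where a library was left out of Act 5dw, the remaining one was assumed to vary like the other groups.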
